A study of Oryza sativa with 6 samples.

Results

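The duplicated starts of rice chromosomes 11 and 12 were examined in chromatin immunoprecipitation sequencing (ChIP-seq) peaks of HMG-GFP. Members were the peaks of the 3 lists whose midpoint lay in the first 2.5 Mb of either chromosome, that is, the end of the short arm. They numbered 850 of 60158 peaks in replicate 1, 831 of 56916 in replicate 2 and 713 of 41526 in replicate 3. Overlapping members of the 3 lists were merged into 898 regions of 60991 in all, 442 on chromosome 11 and 456 on chromosome 12. The rule used position only, so none of the values below entered the choice of the members.

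The lists came from leaf blades of transgenic rice labelled HMG-GFP, a GFP fusion in a series whose title names the chromatin protein OsHMGB1, and chromatin was pulled down through the GFP part. Seedlings had been kept for 28 d in a condition labelled HP, at 30 °C for 12 h of light and 22 °C in the dark. The 6 samples form 2 groups, 3 immunoprecipitates and 3 inputs without antibody. Only the immunoprecipitates have values here, and no sample without the fusion protein was analysed. The promoter of the transgene, the number of transgenic lines and whether replicates were separate plants are not given in the labels. Spreads and p-values therefore measure only how these samples vary. The lists give no read counts, so the depth of the libraries is unknown.

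HMGB proteins are small and abundant chromatin proteins with an HMG box, which binds the minor groove of DNA and bends it with little preference for sequence. They loosen chromatin and help other factors to reach DNA. The short-arm ends of rice chromosomes 11 and 12 carry a large segmental duplication that keeps unusually similar sequence and gene order in its copies, and gene conversion between the copies is known to have kept parts of them alike. The copies therefore place similar DNA at separate chromosomal addresses within the same nuclei.

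Peaks took up slightly more sequence in the chromosome 12 copy than in the chromosome 11 copy in each list, and the enrichment of peaks was at the same level in the copies. On chromosome 11, peaks covered 27.6%, 28.7% and 24.6% of the first 2.5 Mb in replicates 1, 2 and 3, a mean of 27.0% ± 2.12 (SD, n = 3). On chromosome 12 they covered 28.7%, 29.2% and 25.8%, a mean of 27.9% ± 1.88 (SD, n = 3). The chromosome 11 copy was lower in each of the 3 lists, by a mean of 0.925 percentage points ± 0.365 (SD, n = 3) within a list. This was smaller than the spread between lists but went one way in each of them (exact two-sided sign-flip permutation test, p = 0.25, the smallest that 3 lists allow). When peaks below a fold of 2 were left out, the mean difference was -0.08 points, with chromosome 11 lower in 1 of 3 lists.

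The numbers of peaks gave no such constant order. Chromosome 11 held 413, 419 and 352 members and chromosome 12 held 437, 412 and 361, so replicate 2 had more on chromosome 11 and the others more on chromosome 12. The difference in peaks per Mb was -3.47 ± 6.20 (SD, n = 3; exact sign-flip permutation test, p = 0.50). Member peaks were of the same median width in the copies, 1200 bp in replicates 1 and 2 and 1400 bp in replicate 3. Peaks of 10 kb or more were rare, with 2, 3 and 0 on chromosome 11 and 4, 4 and 0 on chromosome 12. They were rare over the 12 chromosomes too, at 958 of 60035, 884 of 56812 and 157 of 41474 peaks in replicates 1, 2 and 3.

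The fold enrichment, a linear ratio that the authors give for each peak, described how strong a peak was. Its median on chromosome 11 was 2.91, 2.24 and 1.98 in replicates 1, 2 and 3, and on chromosome 12 it was 2.91, 2.23 and 1.99. The difference of the medians was 0.00217 ± 0.0127 (SD, n = 3), with chromosome 11 higher in 2 of 3 lists (exact sign-flip permutation test, p = 0.75), and its sign depended on the settings tried. The middle 50% of the peaks, from the lower to the upper quartile, lay between 2.396 and 3.502 on chromosome 11 and between 2.30 and 3.54 on chromosome 12 in replicate 1. A fold of at least 2 was reached by 88.4% of chromosome 11 members and 86.0% of chromosome 12 members in replicate 1, against 83% of all peaks of that list on the 12 chromosomes. In replicate 2 the shares were 65.4% and 62.9% against 59.8%, and in replicate 3 they were 48.0% and 49.0% against 52.8%. Members were thus a little above the level of the whole list in replicates 1 and 2 and a little below it in replicate 3.

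**Figure D1:**
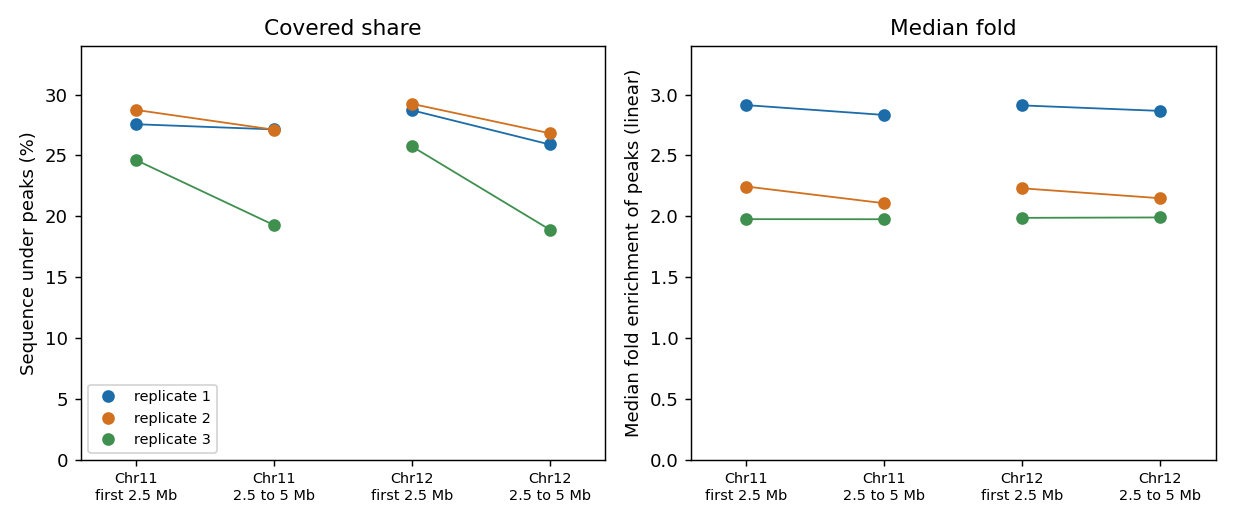
Share of sequence under peaks in percent (left) and median fold enrichment of peaks on a linear scale (right) in the first 2.5 Mb of chromosomes 11 and 12 and in the next 2.5 Mb, 1 point per replicate, with lines joining the stretches of a chromosome. Replicate 3 falls from 24.6% to 19.3% on chromosome 11 and from 25.8% to 18.9% on chromosome 12, while the medians of the fold differ more between replicates than between stretches.

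Beyond the duplication, peaks were less dense, most of all in replicate 3. From 2.5 to 5 Mb on chromosome 11, peaks covered 27.1%, 27.1% and 19.3% in replicates 1, 2 and 3, and on chromosome 12 they covered 25.9%, 26.8% and 18.9%. The start was covered more than this neighbouring stretch in each list and on each chromosome. The difference was 0.424, 1.62 and 5.34 percentage points on chromosome 11, a mean of 2.46 ± 2.57 (SD, n = 3). It was 2.82, 2.42 and 6.84 percentage points on chromosome 12, a mean of 4.03 ± 2.44 (SD, n = 3). Each difference had p = 0.25 in the exact two-sided sign-flip permutation test, the smallest possible with 3 lists, and p = 0.375 after Benjamini-Hochberg adjustment over the 9 comparisons made. Replicate 3 made up much of both means, which were 1.02 and 2.62 percentage points without it. The end of the duplication was also moved, and the neighbouring stretch then began at the new end and was as long as the new start. With the end at 2.0 Mb the means were 1.17 and 1.25, where chromosome 12 was higher at the start in 2 of 3 lists. With 3.0 Mb they were 1.38 and 3.95, where chromosome 11 was higher at the start in 1 of 3 lists.

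The difference between the first 2.5 Mb and the next can be set beside the other chromosomes. It is one of averages and not a step at 2.5 Mb. In bins of 250 kb, mean coverage went down to 18.6% and 21.2% within the starts of chromosomes 11 and 12. It went up to 33.1% and 30.9% beyond them. The ratio of the covered share in the first 2.5 Mb to that in the next was 1.02, 1.06 and 1.28 on chromosome 11 and 1.11, 1.09 and 1.36 on chromosome 12 in replicates 1, 2 and 3. Among the 12 chromosomes, chromosome 12 ranked 1, 1 and 2 by this ratio and chromosome 11 ranked 7, 2 and 3. In replicate 3 the ratio was higher on chromosome 4, at 1.50, where both stretches were covered little, to 11.3% and 7.50%. In level, the 2 starts stood low among the 12 in replicates 1 and 2, at ranks 10 and 9 in each, and in the middle in replicate 3, at ranks 6 and 5. The start of chromosome 3 was covered most in each list, at 35.5%, 39.3% and 36.6%.

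The strength of peaks hardly changed across the end of the duplication, and the direction of the change depended on where that end was set. The median fold at the start exceeded that of the neighbouring stretch by 0.0809, 0.138 and 0.000757 on chromosome 11, a mean of 0.0731 ± 0.0688 (SD, n = 3; exact sign-flip permutation test, p = 0.25). On chromosome 12 the differences were 0.0452, 0.0815 and -0.00335, a mean of 0.0411 ± 0.0426 (SD, n = 3; exact sign-flip permutation test, p = 0.50). Replicate 2 carried much of this, and without it the means were 0.0408 and 0.0209. Without replicate 3 the mean on chromosome 12 was 0.0633. With the end at 2.0 Mb both turned, to -0.150 and -0.0390, each negative in 3 of 3 lists. With the end at 3.0 Mb they were 0.112 and 0.148, each positive in 3 of 3 lists.

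About 2 in 3 regions of each copy recurred in all lists. On chromosome 11, 301 of 442 regions held a peak of every list, 68.1% (Wilson 95% interval 63.6% to 72.3%), and on chromosome 12, 306 of 456 did, 67.1% (62.7% to 71.3%). Over all merged regions of the 12 chromosomes the share was 58.7%, and from 2.5 to 5 Mb it was 58.1% on chromosome 11 and 57.5% on chromosome 12. With each list cut to the same number of peaks by FDR, the shares were 59.6% and 57.2% in the starts, 54.2% and 58.7% in the neighbouring stretches and 59.0% over the 12 chromosomes. The intervals cover counting error only and treat neighbouring regions as independent, and no test of the difference is given.

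The gap lay with replicate 3, the shortest list. Regions with peaks of replicates 1 and 2 only were 16.1% of the regions at the start of chromosome 11 and 14.5% at that of chromosome 12, compared with 23.7% and 22.0% in the neighbouring stretches and 22.1% over all chromosomes. Of the replicate 1 peaks, 77.2% and 77.1% at the starts met one of replicate 3, compared with 66.8% and 67.4% from 2.5 to 5 Mb. For replicate 2 these shares were 93.9% and 91.8% at the starts and 92.5% and 90.6% beyond. With replicate 3 left out, the shares of regions in both remaining lists were 87.0% and 86.9% at the starts, 86.2% and 83.5% in the neighbouring stretches and 84.1% over the 12 chromosomes. Sequence under peaks of all 3 lists made up 16.9% and 17.2% of the starts, 13.75% and 13.02% of the neighbouring stretches and 15.2% of the 12 chromosomes.

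Most recurrent regions had a simple make-up. Exactly 1 peak of each list formed 91.7% of those on chromosome 11 and 86.9% of those on chromosome 12, against 85.1% over all chromosomes, and their median width was 1800 bp in each copy. Folds fell in the order of replicates 1, 2 and 3 in 206 and 195 of them, 68.4% and 63.7%, against 69.8% over all chromosomes. Across these regions the fold ranks of replicates 1 and 2 had a Spearman rho of 0.64 on chromosome 11 and 0.59 on chromosome 12, those of replicates 2 and 3 of 0.54 and 0.46, and those of replicates 1 and 3 of 0.35 and 0.30. Regions share the libraries and are not independent replicates, so these coefficients are descriptions.

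Peak coverage rose and fell along the starts in a similar way in the copies in replicates 1 and 2. In bins of 250 kb, mean coverage peaked from 1750001 to 2000000 in both copies, at 34.6% ± 5.69 on chromosome 11 and 36.1% ± 2.03 on chromosome 12 (SD, n = 3). The lowest mean was found from 1500001 to 1750000 on chromosome 11, at 18.6% ± 0.711, and from 1250001 to 1500000 on chromosome 12, at 21.2% ± 1.97. The bin from 1500001 to 1750000 set the means of the copies most apart, with 18.3%, 19.4% and 18% on chromosome 11 and 27.1%, 27.8% and 22.8% on chromosome 12. The lists of the copies did not overlap in this bin. They did not overlap in the bin from 1 to 250000 either, where chromosome 11 was the higher copy. It had 30.9%, 31.0% and 29.5% there, against 27.8%, 27.3% and 26.5% on chromosome 12.

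Other bins depended on the list. From 2000001 to 2250000 on chromosome 12, coverage was 37.6% and 36.6% in replicates 1 and 2 and 21.0% in replicate 3, whereas the same bin of chromosome 11 had 31.2%, 33.4% and 33.5%. From 1000001 to 1250000 on chromosome 11 it was 23.2% and 23.9% in replicates 1 and 2 and 13.4% in replicate 3. Over the 10 bins of the starts, the coverage of the copies had a Pearson r of 0.68, 0.73 and 0.22 in replicates 1, 2 and 3 (Spearman rho 0.65, 0.56 and 0.16), against 0.39, 0.25 and -0.012 (0.55, 0.28 and 0.055) over the 10 bins from 2.5 to 5 Mb. For the median fold of the bins, r was 0.36, 0.80 and 0.46 in the starts and 0.52, 0.58 and 0.050 beyond. In replicate 1 the fold thus followed more closely in the neighbouring stretches. Bins at equal distance from the chromosome end need not hold matching sequence, and bins of a list share its library.

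**Figure D2:**
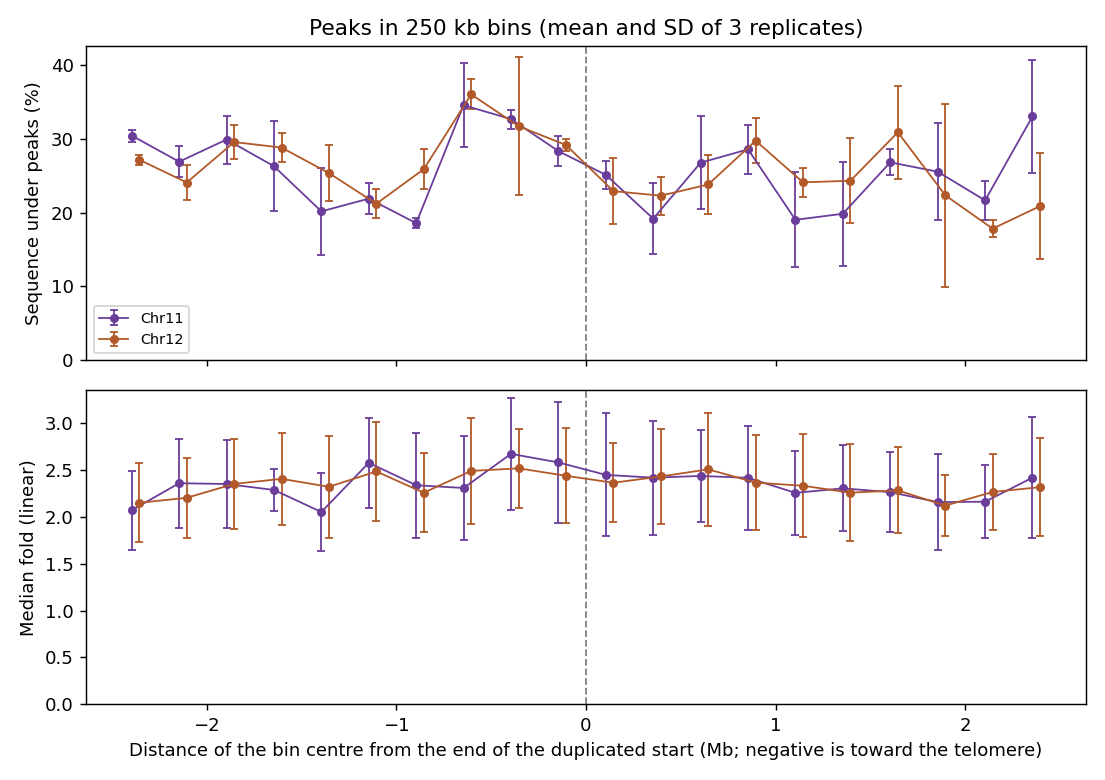
Share of sequence under peaks in percent (top) and median fold on a linear scale (bottom) in bins of 250 kb, plotted against the distance of the bin centre from the end of the duplicated start in Mb, for chromosomes 11 and 12; points are means and bars SDs of 3 replicates, and the dashed line marks the end of the duplicated start. Coverage reaches 34.6% and 36.1% in the same bin of the copies and the fold bars reflect the lower folds of replicates 2 and 3.

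The strongest recurrent regions of the starts were 400 to 5200 bp wide and lay apart from each other. On chromosome 11 the highest median fold over the lists was that of a 2400 bp region from 2011201 to 2013600, with folds of 5.44, 4.88 and 2.29 in replicates 1, 2 and 3. Next came a 1000 bp region from 1339001 to 1340000, with folds of 7.66, 4.55 and 2.22, the first of which was the highest fold of any member in replicate 1. Replicates 1 and 2 placed these regions between percentiles 96.5 and 99.7 of their lists, whereas replicate 3 placed them at percentiles 69.8 and 64.5. Regions were ranked by the median fold, here that of replicate 2. The high places in replicates 1 and 2 therefore follow from the ranking, and the contrast with replicate 3 is not a separate result.

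The others on chromosome 11 lay at 2213201 to 2214800, with folds of 6.14, 4.35 and 2.24, at 2118401 to 2119600, with 6.72, 4.21 and 3.03, and at 2254601 to 2257200, with 6.19, 4.05 and 3.24. Replicate 3 placed these last 2 regions high as well, at percentiles 95.9 and 97.8 of its list. Of the 5 regions, 4 stood past 2 Mb.

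The leading region of chromosome 12 was 1000 bp wide, from 171801 to 172800, and its folds of 4.40, 4.46 and 4.03 differed little between the lists. Replicate 3 placed it at percentile 99.8 and replicate 1 at percentile 88.5. The region from 2186401 to 2186800, 400 bp wide, also stood high in replicate 3, with folds of 6.04, 4.17 and 3.95. The remaining 3 had folds of 4.40, 4.31 and 2.60 (448801 to 450000), 4.48, 4.29 and 2.46 (1691201 to 1692400) and 6.26, 4.28 and 2.27 (2385601 to 2390800). Unlike on chromosome 11, these 5 regions were spread over the whole start. In the whole series the leading regions of chromosomes 11 and 12 ranked 285 and 723 by median fold among 35791 recurrent regions. No gene was assigned to any region, since no annotation of the assembly of the lists was used here.

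The widest recurrent regions had modest folds. On chromosome 11 they measured 13000 bp (2032201 to 2045200, folds 2.13, 1.45 and 1.26), 11400 bp (537001 to 548400, folds 3.25, 2.26 and 2.503) and 9800 bp (6401 to 16200, folds 2.94, 2.03 and 2.38). On chromosome 12 they measured 12000 bp (573401 to 585400, folds 3.34, 2.35 and 2.21), 10200 bp (2491001 to 2501200, folds 2.49, 2.03 and 1.13) and 9800 bp (4801 to 14600, folds 2.92, 2.48 and 2.41). The 9800 bp regions of the copies were of the same width and joined 2 peaks of each list, and they stood at nearly the same distance from the chromosome end. The region ending at 2501200 is also the last of the chromosome 12 start and crosses its limit. On chromosome 11 the last recurrent region ran from 2495801 to 2497200, with folds of 2.74, 2.60 and 2.57.

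At the limit itself, the last members of replicates 1, 2 and 3 had folds of 2.74, 2.60 and 2.57 on chromosome 11 and the first peaks past it had 3.996, 1.97 and 1.77. On chromosome 12 the last members had folds of 1.72, 1.32 and 1.13 and the first peaks past the limit 3.54, 2.21 and 2.17.

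Stretches without a peak of any list were short. The longest was 26200 bp on chromosome 11, from 1235601 to 1261800, and 26000 bp on chromosome 12, from 178201 to 204200. The median stretch between regions was 2800 bp in each copy. The longest stretches did not lie at matching distances from the chromosome ends.

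Whether peaks of the copies stand in the same order and spacing was examined by sliding chromosome 12 along chromosome 11. In blocks of 250 kb, the offset with the greatest overlap was chosen in replicate 1 and the overlap, bases under peaks of both copies over bases under a peak of either, was read in replicates 2 and 3. Averaged over 10 blocks, it was 27.3%, 26.5% and 16.6% in the 3 lists, against a mean of 15.9% over all offsets in replicate 1. The same steps from 2.5 to 5 Mb gave 28.0%, 24.6% and 12.6%, against 15.4%. Chosen offsets jumped from -336200 to 408000 bp between blocks and held no common course along the start. At this scale the starts did not show more matching than the neighbouring stretches by the choice in replicate 1. The readings in replicates 2 and 3 were higher in the starts, with no test. Such overlap also grows with coverage, and replicate 3 covered 24.6% and 25.8% of the starts against 19.3% and 18.9% beyond. Most replicate 1 peaks at the starts also met one of replicate 2 (93.9% and 91.8%). The mean over all offsets was taken in replicate 1 only, so these readings do not decide whether the starts match more.

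At these offsets 56 pairs of recurrent regions matched, from 301 such regions on chromosome 11 and 306 on chromosome 12. The offsets were chosen for overlap in replicate 1, and no such count was made from 2.5 to 5 Mb. The number of pairs therefore does not speak to matching. The 5 pairs with the highest summed median fold lay far from the chromosome ends. The first joined 660001 to 660800 on chromosome 11 (folds 3.72, 3.68 and 2.07) with 1052401 to 1053600 on chromosome 12 (3.38, 2.49 and 2.07). In the others, chromosome 11 regions from 1390801 to 1393200, 1404801 to 1405800, 2207001 to 2208000 and 1117201 to 1122600 met chromosome 12 regions from 1744001 to 1747200, 1759201 to 1760200, 2256801 to 2257600 and 901801 to 907400. The offsets of these pairs, 392400, 354200, 354200, 49800 and -215600 bp, differ so much that the pairs do not form a collinear series.

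A finer scan, chosen after the data were seen, found a close match at the telomeric end of the copies. It took blocks of 50 kb in steps of 10 kb, counted in each 200 bp bin how many lists had a peak, and sought the offset of up to 300 kb with the highest Pearson r between the copies. The block of chromosome 11 from 10001 to 60000 had an r of 0.94 with chromosome 12 at an offset of -1600 bp, and the block from 70001 to 120000 had 0.91 at -4200 bp. Of 246 blocks in the starts, 7 had an r of at least 0.7, and 0 of 246 had it from 2.5 to 5 Mb, where the highest was 0.69. The median r over blocks was 0.46 in each stretch, so this scan found a match in a few blocks only. It took a single offset of up to 300 kb per block. It therefore cannot tell whether the rest of the starts match at larger offsets or at offsets that change within a block. How reads that fit both copies were placed is not given in the labels, and its part in the match was not tested.

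The match was found in each list alone. The highest r within the starts was 0.89 in replicate 1 and 0.91 in replicate 2, both for the block from 10001 to 60000 at -1600 bp, and 0.91 in replicate 3 for the block from 70001 to 120000 at -4200 bp. In the neighbouring stretch the highest values were 0.71, 0.62 and 0.90, the last in replicate 3 at an offset of 291200 bp. A single list can therefore reach a high r in 1 block away from the duplication. Among the 66 pairs of chromosome starts, the pair of chromosomes 11 and 12 had the highest r, followed by chromosomes 9 and 10 with 0.81 and chromosomes 6 and 10 with 0.78.

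**Figure D3:**
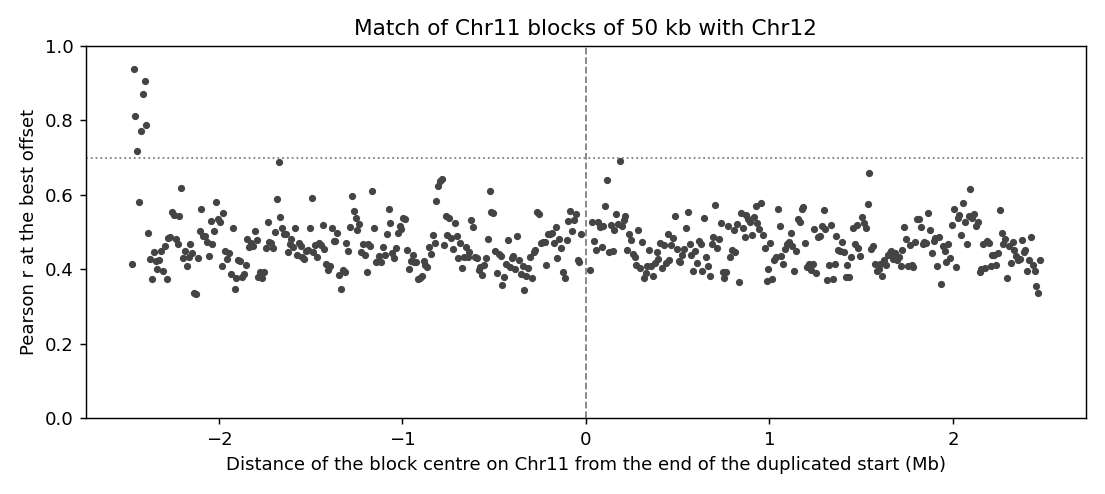
Pearson r at the best offset between 50 kb blocks of chromosome 11 and chromosome 12, computed on the number of lists with a peak in each 200 bp bin, against the distance of the block centre on chromosome 11 from the end of the duplicated start in Mb; the dashed line marks that end and the dotted line an r of 0.7. The 7 blocks above 0.7 stand at the far left, at the telomeric end, and the highest block right of the dashed line reaches 0.69.

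Runs of 3 or more blocks in a row whose best offset moved by at most 400 bp numbered 18 in the starts and 10 in the neighbouring stretches, but only 2 of them, both in the starts, had a block with an r of at least 0.7. These ran from 10001 to 80000 at -1600 bp and from 40001 to 130000 at -4000 to -4200 bp. The next highest in the starts ran from 790001 to 870000 at about 38000 bp, with an r of up to 0.69, and from 1660001 to 1740000 at -43800 bp, with up to 0.64. The highest run of the neighbouring stretches reached 0.62.

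Within the first 130 kb, most peaks of a copy had a partner in the other. The matching stretch of chromosome 12 ended at 125800, and peaks were paired where they overlapped by at least 50% of each after a shift by -1600, -4000 or -4200 bp. In replicate 1, 19 of 23 chromosome 11 peaks and 19 of 23 chromosome 12 peaks were paired, 82.6% of each. In replicate 2 these were again 19 of 23 and 19 of 23, and in replicate 3 they were 15 of 18 (83.3%) and 15 of 16 (93.8%). With no limit on chromosome 12, the chromosome 11 peaks with a partner were 20 of 23, 20 of 23 and 16 of 18. Counted in that way over the rest of the start, 19.2%, 19.7% and 20.1% of the chromosome 11 peaks had a partner at any of the same offsets, and from 2.5 to 5 Mb 18.1%, 17.4% and 19.2% did. Of the pairs, 13, 12 and 7 had the same width and stood at exactly the offset, on the 200 bp grid of the lists. The stretch was picked for its match and the offsets were taken from it, so these counts are a description of it. Elsewhere no offset was sought for this count, so the low shares there do not speak to matching at other offsets.

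**Figure D4:**
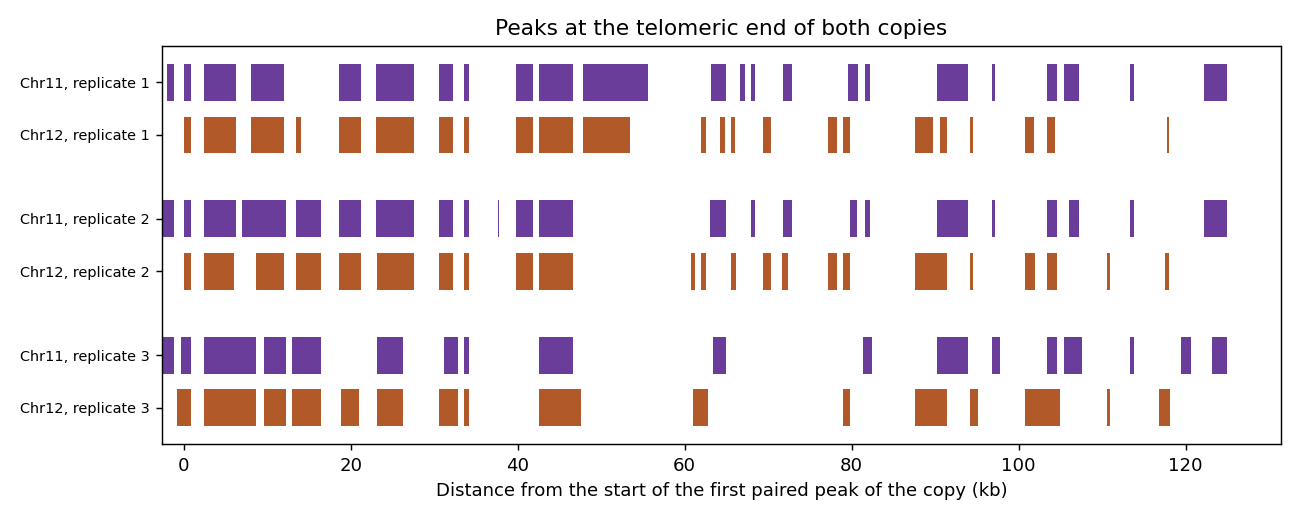
Peaks of each replicate in the first 130 kb of chromosome 11 (purple) and the matching end of chromosome 12 (brown), drawn to scale as bars against the distance in kb from the start of the first paired peak of each copy. The bars of the copies stand under each other on the left and shifted on the right, where the offset moves from -1600 bp to -4000 and -4200 bp.

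The series of paired peaks began at the end of the chromosomes. In replicate 1 the first pair was the peak from 4001 to 4800 on chromosome 11 and from 2401 to 3200 on chromosome 12, each 800 bp wide. It was followed by pairs of 3800, 4000, 2600, 4600, 1600, 600, 2000 and 4000 bp, all of equal width in the copies and all at -1600 bp. The 10th pair, 7800 bp wide on chromosome 11 and 5600 bp on chromosome 12, had folds of 1.346 in each copy and was the last at -1600 bp. From 70601 on chromosome 11, partners stood at -4000 or -4200 bp. The last pair of replicate 1 ended at 111200 on chromosome 11 and 106800 on chromosome 12, and that of replicate 3 at 124600 and 120600.

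Folds of partners lay close to each other in most pairs of each list. The median absolute difference was 0.213, 0.0789 and 0.107 in replicates 1, 2 and 3, and chromosome 11 had the higher fold in 8 of 19, 12 of 19 and 6 of 15 pairs. Across the pairs of a list the Pearson r of the folds was 0.81, 0.88 and 0.88 (Spearman rho 0.83, 0.92 and 0.925), a description over peaks that share a library. In 10 pairs the partners were found in every list, and in 2 of these chromosome 11 was higher in all 3 lists and in 0 chromosome 12 was. So small a count does not rank the copies, and it was not tested. The pair at 34601 to 36200 on chromosome 11 had folds of 2.87, 2.32 and 1.86 there and 2.64, 2.21 and 1.69 on chromosome 12. The pair at 85601 to 86200 had 2.66, 1.82 and 1.90 against 1.94, 1.72 and 1.89, a difference of only 0.00485 in replicate 3. The largest difference of a pair was that of the first one in replicate 1, with 4.35 on chromosome 11 and 3.19 on chromosome 12, but the order was turned in replicate 2, with 2.92 and 3.04.

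**Figure D5:**
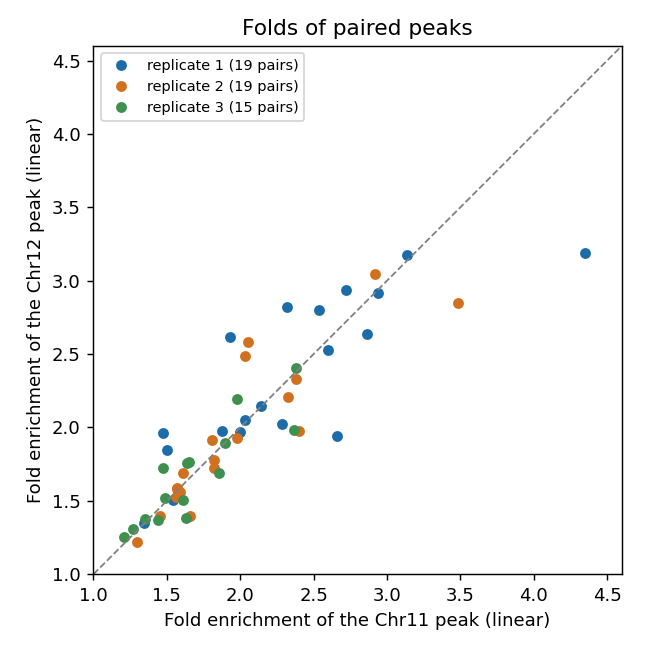
Fold enrichment of the chromosome 12 peak against that of its chromosome 11 partner, both on a linear scale, 1 point per pair and list in the first 130 kb; the dashed line marks equal folds. Points of the 3 lists follow the line, with 19, 19 and 15 pairs in replicates 1, 2 and 3 and the most distant point at 4.35 and 3.19.

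Some peaks of this stretch had no partner by this rule, although some of them overlapped a peak of the other copy. On chromosome 12 a peak at 64401 to 65000 had folds of 2.58 and 2.39 in replicates 1 and 2. After the shift by -4000 bp it fell within wider chromosome 11 peaks ending at 69000, so it missed only the 50% overlap. Those chromosome 11 peaks had folds of 1.44 and 1.46, so in these lists the unpaired site differed more between the copies than most pairs did. In replicate 3 the same site was paired, with folds of 1.44 on chromosome 11 and 1.37 on chromosome 12. Peaks ending at 120400 on chromosome 12 had folds of 3.36 and 3.71 in replicates 1 and 2 with no partner, and replicate 3 had a pair there, with 1.65 on chromosome 11 and 1.76 on chromosome 12. The last chromosome 11 peak, ending at 129000, overlapped at -1600 bp with a chromosome 12 region from 125201 to 128600 that begins inside the stretch and whose peaks have their midpoint beyond its end. The first peak of chromosome 11, ending at 2800, would fall at 1200 on chromosome 12 after the shift, where no list had a peak.

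The matching stretch was covered more densely than the remainder of the start but with weaker peaks. On chromosome 11 its median fold was 2.32, 1.82 and 1.63 in replicates 1, 2 and 3, where the remaining start had 2.97, 2.28 and 1.99. On chromosome 12, up to 125800, the medians were 2.53, 1.78 and 1.61 against 2.93, 2.25 and 2.01. Peaks covered 37.4%, 34.2% and 29.4% of the first 130 kb of chromosome 11 against 27.0%, 28.4% and 24.4% of the remainder, and 32.8%, 31.8% and 33.5% against 28.5%, 29.1% and 25.3% for the first 130 kb and the rest of chromosome 12. The fold was lower and the coverage higher in each list and each copy. Such coverage was not particular to the matching stretch. From 1750001 to 2000000 it was 36.6%, 39.0% and 28.2% on chromosome 11 and 35.7%, 38.2% and 34.2% on chromosome 12. Since the matching stretch was singled out after its peaks were seen, no test is given.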

How the data were processed

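Chromatin of HMG-GFP leaf blades was fixed with 1% formaldehyde for 30 min, per the labels' protocols. Per the submitters' processing notes, the tools were MACS2 2.1.2, Bowtie2 2.4.1, Trimmomatic 0.33 and bcl2fastq 2.19, whose roles are unstated. Not given in the sources used here are the genome build, read filters, the use of the inputs and the placing of reads that fit both copies of the duplication, which could change any peak in near-identical sequence. Each replicate has a list of its own. The deposited fold enrichment is a ratio on a linear scale, and the deposited pileup is that fold times 0.674, 0.603 and 0.726 in replicates 1, 2 and 3, so it was not used. Each peak has a deposited p-value and an FDR of at most 1e-05 from the peak caller of the authors. Peak edges lie on a grid of 200 bp and gaps are at least 800 bp, which limits the resolution of widths and offsets. Starts count from 0 in the files and from 1 here. Depth is unknown.

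Overlap meant at least 1 bp, and the fold of a region is its highest in a list. Differences were taken within lists and tested with an exact sign-flip test over the 3 lists. The finer offset scan was checked on simulated single lists, and the merging of peaks and the sign-flip test on small made examples. The scan in blocks of 250 kb was not checked in this way. Regions named were, in each start, the 5 strongest and 3 widest recurrent regions, the first and last, the longest stretch without a peak and the 5 strongest matched pairs. The first recurrent regions ended at 2800 on chromosome 11 and at 3200 on chromosome 12. The members and lists were chosen with earlier results of these data known. Settings were varied by an FDR of 1e-20, folds of 2 or more, equal list lengths, membership by overlap, an end at 2.0 or 3.0 Mb, reciprocal overlap of 50%, other blocks, and leaving out each replicate. Where the end was moved, the neighbouring stretch began at the new end and was as long as the new start. No genome of the build of the lists was used, so no sequence or gene is given. Computation used scipy 1.17.1, pandas 2.3.3, numpy 2.4.6 and Python 3.11.15, and plots matplotlib 3.10.9.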

Additional observations from a re-analysis of the deposited data

How the results depend on the processing

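The mean difference in covered share kept its direction in all 3 comparisons under the 9 alternatives run, from -1.17 to -0.08 between the copies, 1.02 to 3.48 for chromosome 11 and 1.25 to 4.83 for chromosome 12 against the neighbouring stretch. The difference in median fold between the copies turned to -0.0247 with a fold of at least 2, to -0.00292 with equal list lengths and to -0.0655 with an end at 2.0 Mb, and ranged from -0.00414 to 0.00859 when a replicate was left out. With the end at 2.0 Mb, the median fold of the start minus that of the neighbouring stretch turned to -0.150 on chromosome 11 and -0.0390 on chromosome 12. With the end at 3.0 Mb this difference was 0.112 and 0.148. The share of regions in all lists on chromosomes 11 and 12 was 52.1% and 53.4% with an FDR of 1e-20, 36.1% and 32.9% with a fold of at least 2, 59.6% and 57.2% with equal list lengths, and 44.1% and 42.9% with reciprocal overlap. Over the 12 chromosomes it was 50.7%, 34.6% and 59.0% with the first 3 of these settings, computed after the data were seen, and in the neighbouring stretches of chromosomes 11 and 12 it was 43.7% and 49.1%, 25.5% and 30.0%, and 54.2% and 58.7%. With reciprocal overlap the share was computed in the starts only. When a replicate was left out, the share in the starts ranged from 69.6% to 87.0% on chromosome 11 and from 68.9% to 86.9% on chromosome 12. Over the 12 chromosomes it then ranged from 60.2% to 84.1%. In the neighbouring stretches it ranged from 60.5% to 86.2% and from 60.5% to 83.5%. The overlap at the best offset, 21.5% over replicates 2 and 3, was 11.6% with a fold of at least 2. The highest r of a 50 kb block was between 0.898 and 0.962 with an FDR of 1e-20, a fold of at least 2, equal list lengths or a replicate left out, and above that of the neighbouring stretch, whose highest was 0.804, and blocks of 30 kb gave 0.974 against 0.813. The causes of these changes were not tested. No paired analysis was possible because no values of the inputs, which share replicate numbers with the immunoprecipitates, were analysed here, and this concerns immunoprecipitate against input only: stretches were compared within each list. Read depth is unknown and limits every count of peaks.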
